A study of Mus musculus with 4 samples.

Results

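The 9 genes described here are Wt1, Tcf21, Tbx18, Upk1b, Upk3b, Mab21l2, Msln, Krt19 and Sema3e, taken by symbol from the 32285 features of a single-cell RNA sequencing study of mouse embryonic hearts. All 9 symbols were present. The wild-type (Wt) group held hearts of C57BL/6J embryos at E10.5, and the homozygous (Ho) group held hearts of the same strain and age with the genotype Cyp51 I383V/I383V. Cyp51 encodes the lanosterol demethylase of cholesterol synthesis, and its point mutation was placed in the germline with CRISPR/Cas9, which the labels list as the treatment of all 4 libraries. Each genotype had 2 libraries, called Wt rep1, Wt rep2, Ho rep1 and Ho rep2, so that Wt1 denotes only the gene. The labels do not say whether a library came from 1 embryo or from a pool, so the spread between libraries may be partly technical.

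The epicardium is the mesothelial sheet that covers the heart. It spreads over the myocardium from the proepicardium, a cluster of cells at the venous pole, and later supplies fibroblasts and mural cells of the coronary vessels. Its cells are commonly recognised by the transcription factors Wt1, Tcf21 and Tbx18 together with surface proteins and keratins of mesothelium, among them uroplakins, mesothelin and keratin 19. None of these factors belongs to the epicardium alone, since Tbx18 also marks the sinus horn myocardium next to the pacemaker and Tcf21 marks mesenchyme of the pharyngeal arches.

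Whole hearts were dissociated with Collagenase II, red blood cells were lysed, and the values are counts of unique molecular identifiers (UMIs), 1 per captured mRNA molecule. After filters on cells and removal of doublets, 8908 cells of Wt rep1, 7154 of Wt rep2, 6980 of Ho rep1 and 6126 of Ho rep2 were used. Their UMIs totalled 97004419, 105384571, 113596628 and 98459742, and the median depth was 10551.5, 14231, 15662.5 and 15843 UMIs per cell, lowest in Wt rep1. Any pair of libraries shared 9 to 29 cell barcodes, at most 0.415% of the smaller library.

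Cells were sorted into gates by the UMIs of 7 genes, none of them among the 9. A gate gene was called high in a cell with at least 2 UMIs of it and at least a set number per 10000 UMIs. Cells high for Tnnt2, which encodes a troponin of cardiac muscle, were split by Shox2, a transcription factor of the sinus venosus and pacemaker. They gave 1395, 2290, 2997 and 1876 Shox2-low cells and 271, 272, 407 and 524 Shox2-high cells (Wt rep1, Wt rep2, Ho rep1 and Ho rep2, the order used throughout). The Cdh5 gate, for endothelium, held 988, 1532, 1615 and 914 cells, and the Hapln1 gate, for cushion mesenchyme, held 653, 804, 986 and 549. The cells in which none of Tnnt2, Cdh5, Epcam, Isl1, Crabp1 and Hapln1 was high, called ungated here, numbered 2820, 1227, 841 and 1227. Shox2 only split the Tnnt2 cells, so ungated cells may be high for it.

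Ho rep1 and Wt rep1 stood apart in their cells. The Epcam gate, for epithelium, held 453, 182, 0 and 261 cells, the Isl1 gate, for second heart field progenitors, held 1123, 775, 66 and 704, and the Crabp1 gate, for neural crest and neighbouring mesenchyme, held 1188, 54, 17 and 64. Ho rep1 thus had no Epcam cells and few Isl1 cells, and Wt rep1 held most Crabp1 cells and the most ungated cells, whose median depth there was 6852.5 UMIs against 9172, 11774 and 12480. Ho rep1 also had 28888 UMIs of Xist and 0 of the Y-linked genes Ddx3y, Eif2s3y, Kdm5d and Uty, where the other libraries had 2 to 5 and 8797 to 9908. Ho rep1 is 1 of the 2 Ho libraries. In every comparison of Ho with Wt below that includes it, these differences of 1 library in Xist, Y-linked RNA and kinds of cells cannot be told apart from genotype. Fits without Ho rep1 do not hold its differences but leave Ho rep2 as the lone Ho library. A gate with fewer than 20 cells in a library was left out for that library.

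Tbx18 had a similar level in ungated and Shox2-high muscle cells, as described below, and Upk3b was highest in ungated cells in every library, and the 250 bases before their annotated starts are shown for that contrast. The windows are at chr9:87731261-87731510 on the minus strand and chr5:136038246-136038495 on the plus strand (GRCm38, RefSeq). Of the 9 genes 5 had an entry among the RefSeq promoter windows, and 3 of these began at the start given by the gene annotation, Tbx18, Upk3b and Sema3e. Capitals mark letters that were searched for on both strands. These were the E-box CANNTG and the M-CAT element CATTCC.
Tbx18: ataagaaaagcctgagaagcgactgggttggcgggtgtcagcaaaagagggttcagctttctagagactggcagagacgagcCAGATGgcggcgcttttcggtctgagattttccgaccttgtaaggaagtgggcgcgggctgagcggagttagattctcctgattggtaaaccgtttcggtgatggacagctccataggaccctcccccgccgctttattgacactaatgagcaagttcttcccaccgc
Upk3b: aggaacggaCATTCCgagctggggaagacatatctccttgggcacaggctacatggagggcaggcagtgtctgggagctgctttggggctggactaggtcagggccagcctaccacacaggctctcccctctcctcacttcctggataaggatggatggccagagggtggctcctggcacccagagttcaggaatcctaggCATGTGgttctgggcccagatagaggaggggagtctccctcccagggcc
Each window held an E-box, which 66.2% of 32851 mouse promoter windows also hold. The CATTCC of the Upk3b window is found in 12.6% of them and was not in the Tbx18 window. Neither window held the T-box letters AGGTGTGA (1.12% of windows), the GATA letters AGATAA (9.99%) or TATAAA (12.4%). These matches describe letters and do not show that a factor binds.

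Wt1, a zinc finger transcription factor that maintains epicardial and kidney progenitors, lies at chr2:105126529-105173616 on the plus strand (GRCm38, as all positions here). As counts per 1000000 UMIs of the summed cells (CPM, the scale of all levels here), ungated cells had 10.1, 34.9, 29.8 and 37.5 of Wt1. Shox2-low Tnnt2 cells had 3.03, 3.39, 3.82 and 4.73, and Hapln1 cells 2.42, 5.34, 3.66 and 7.65. Cdh5 cells had 0.479, 0.0755, 0.802 and 0.421. The ungated cells held the highest Wt1 level in 4 of 4 libraries, and the Wt rep1 value was the lowest of its gate. After thinning every cell to 2000 UMIs, Wt1 was detected in 0.721%, 4.28%, 4.87% and 4.73% of ungated cells and in 0, 0, 3 and 0 of 979, 1524, 1608 and 910 Cdh5 cells, where a count of 0 allows up to 0.306%, 0.197% and 0.330% of cells with a UMI at this depth. Without thinning the Cdh5 cells held 7, 2, 23 and 7 UMIs of Wt1, so these limits are not limits on expression. The cells compared had median depths of 10511, 14261, 15263.5 and 14902 UMIs in the ungated set and 13608, 16000, 16507 and 16702.5 in the Cdh5 set, lower in the ungated set in every library.

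Tcf21, a basic helix-loop-helix factor needed for cardiac fibroblasts, lies at chr10:22817281-22820174 on the minus strand and was spread over more gates. Its level in ungated cells was 109, 268, 222 and 276 CPM. In Isl1 cells it was 114, 88.9, 82.4 and 148 CPM, and in Hapln1 cells 94.1, 123, 109 and 147. The ungated cells led in 3 libraries and Isl1 cells in Wt rep1. Shox2-high Tnnt2 cells had 66.0, 80.7, 81.8 and 99.0 CPM of Tcf21, where the Shox2-low cells had 15.2, 12.4, 7.03 and 16.2. Cdh5 cells had 9.04, 10.4, 12.1 and 11.1 CPM, and there 1.65% to 2.55% of thinned cells had a UMI of Tcf21, against 12.4% to 25.2% of ungated cells.

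Tbx18, a T-box repressor of epicardium and sinus horn, lies at chr9:87702800-87731260 on the minus strand and had 2 gates of similar level. Ungated cells had 13.8, 41.4, 52.9 and 61.5 CPM. Shox2-high Tnnt2 cells had 29.6, 27.2, 41.9 and 62.4 CPM, and Shox2-low cells 5.35, 5.55, 4.80 and 6.62. Each of the first 2 gates led in 2 libraries, and their ranges overlapped. Cdh5 cells held 1, 7, 14 and 6 UMIs of Tbx18 in all, or 0.0685, 0.264, 0.488 and 0.361 CPM. In thinned cells Tbx18 was detected in 7.43%, 5.17%, 9.93% and 10.4% of Shox2-high cells, in 1.14% to 1.39% of Shox2-low cells and in 1 of 5021 Cdh5 cells, at median depths of 13238, 15418, 14715 and 16265 UMIs in Shox2-high and 14260, 19773, 18890 and 19907 in Shox2-low cells.

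The uroplakins are membrane proteins of urothelial plaques that mesothelium also makes. Upk1b, a tetraspanin (chr16:38773184-38800328, minus strand), had 22.6, 84.2, 70.0 and 90.2 CPM in ungated cells. The Hapln1 gate came next with 5.44, 7.75, 7.68 and 15.5 CPM, and Cdh5 cells had 0.342 to 0.942. Upk3b, a single-pass partner of the tetraspanin uroplakins (chr5:136038496-136046487, plus strand), had 51.1, 214, 140 and 171 CPM in ungated cells. Both genes were highest in ungated cells in 4 of 4 libraries. In Hapln1 cells Upk3b had 11.2, 23.1, 18.4 and 31.7 CPM, in Isl1 cells 9.85, 16.8, 11.1 and 14.9, in Shox2-high cells 11.2, 8.91, 11.2 and 12.9, and in Cdh5 cells 0.241 to 1.50. It was detected in 3.86%, 14.3%, 12.1% and 13.0% of thinned ungated cells and in 0.0622% to 0.204% of Cdh5 cells.

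Mab21l2, a nuclear protein of the male-abnormal 21 family needed for the ventral body wall and the proepicardium (chr3:86545581-86548629, minus strand), did not share this order. Its Crabp1 cells had 39.9 CPM in both Wt libraries and 31.3 in Ho rep2, while Shox2-high Tnnt2 cells had 19.5, 19.4, 15.1 and 35.6. Isl1 cells had 16.6, 18.1, 8.91 and 8.40 CPM and ungated cells 22.2, 7.94, 5.11 and 8.05. The highest Mab21l2 level was thus in Crabp1 cells in 2 libraries and in Shox2-high cells in the others. Ho rep1, with 17 Crabp1 cells, had too few for this gate, and the Crabp1 value of Ho rep2 rests on 22 UMIs in 64 cells. Hapln1 cells had 1.18 to 3.51 CPM and Cdh5 cells 0.378 to 0.685.

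Krt19, a type I keratin of simple epithelia (chr11:100140810-100148665, minus strand), was high in epithelium, in ungated cells and in muscle. Epcam cells had 46.8, 156 and 46.9 CPM of Krt19 in Wt rep1, Wt rep2 and Ho rep2. Ungated cells had 21.4, 61.3, 54.9 and 64.9 CPM. Shox2-low Tnnt2 cells had 31.3, 35.7, 31.5 and 32.8, above the Shox2-high cells at 17.7, 15.3, 11.8 and 23.4 in every library. Thinned Shox2-low cells had a UMI of Krt19 in 76 of 1144, 136 of 1994, 164 of 2760 and 94 of 1721 cells, or 5.46% to 6.82%, against 0.262% to 0.440% of Cdh5 cells.

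Msln and Sema3e were near the limit of detection. Msln, which encodes mesothelin, a surface protein of adult mesothelium (chr17:25748613-25754378, minus strand), had 53 UMIs in all cells used, and Sema3e, a secreted semaphorin that repels endothelial cells through Plxnd1 (chr5:14025276-14256689, plus strand), had 70. Ungated cells held 6, 7, 12 and 10 UMIs of Msln and 15, 7, 8 and 8 of Sema3e. The Epcam gate held 1, 4 and 6 UMIs of Sema3e in Wt rep1, Wt rep2 and Ho rep2. With all libraries neither gene passed the filter on low counts between gates or between genotypes within a gate, so 7 of the 9 genes were tested there and no fold is given for the other two. Plxnd1, the receptor, had 187, 183, 169 and 207 CPM in Cdh5 cells.

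**Figure D1:**
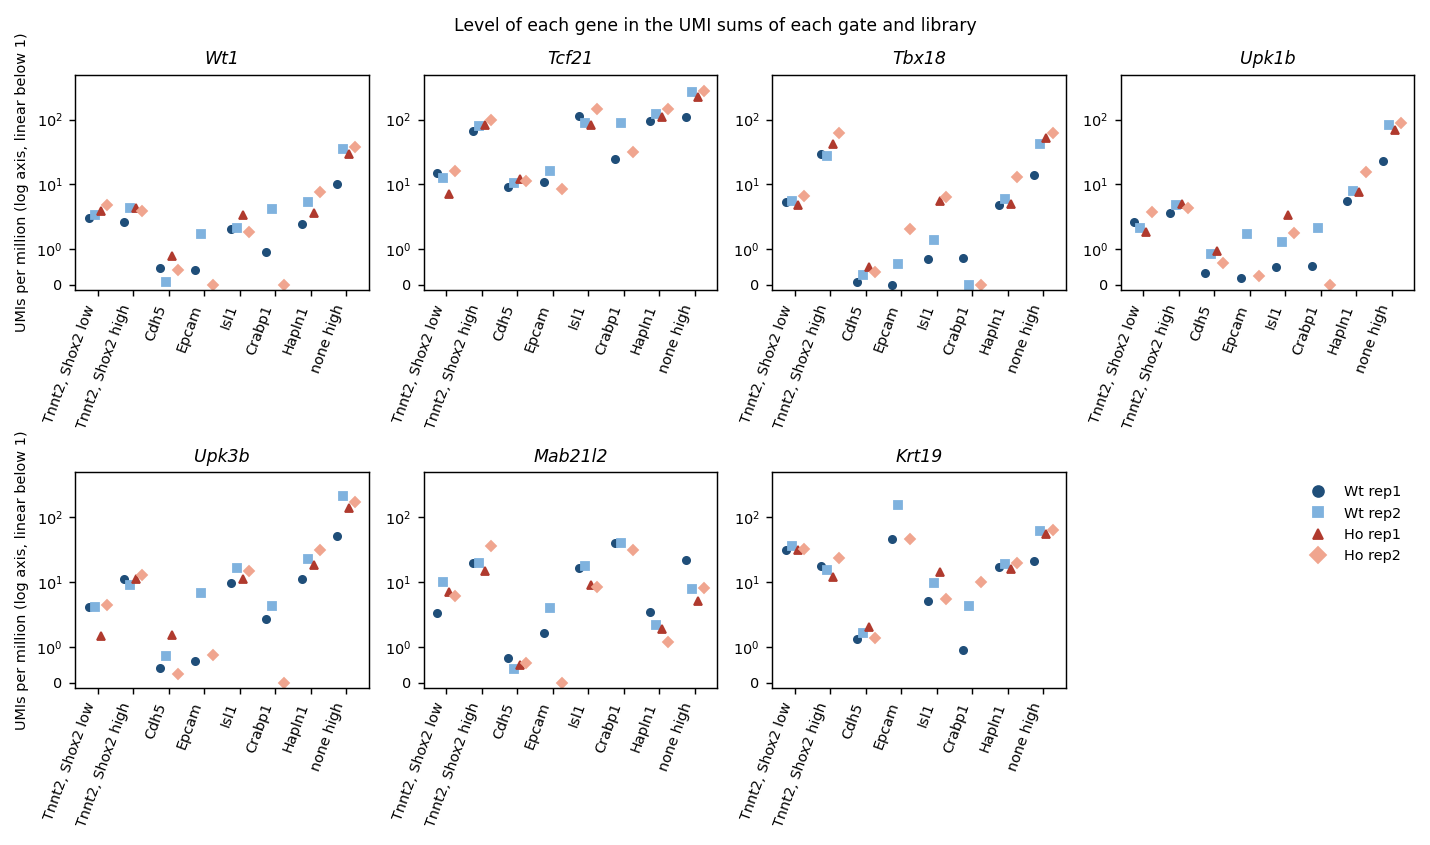
Level of 7 genes (CPM, log axis that is linear below 1) in the summed cells of each gate, with a point for each library. The ungated cells (none high) lead for Wt1, Upk1b and Upk3b in every library, Shox2-high Tnnt2 cells match them for Tbx18, Mab21l2 is highest in Crabp1 or Shox2-high cells, and Krt19 has a raised level in Shox2-low Tnnt2 cells of 31.3 to 35.7.

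The gates were compared in 1 edgeR quasi-likelihood fit over 14886 genes with the library as a block, and a gene was called at a Benjamini-Hochberg adjusted p under 0.05. These comparisons share the ungated cells. Against Cdh5 cells, ungated cells were higher for 7 of 7 members tested, where 24.9% of all genes were called higher, 22.8% lower and 47.6% in either direction. The log2 differences were 7.31 ± 0.39 (SE) for Upk3b, 6.88 ± 0.39 for Tbx18, 6.37 ± 0.28 for Upk1b and 5.84 ± 0.35 for Wt1, and between 4.24 and 4.87 for the other three. Against Hapln1 cells 7 of 7 were again higher (14.2% of all genes higher, 14.5% lower, 28.7% called), from 0.87 ± 0.21 for Tcf21 to 2.86 for Upk1b, and Tcf21 did not pass where the gate limits were halved (0.33, edgeR adjusted p = 0.305).

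Against Shox2-low Tnnt2 cells 5 of 7 were higher (33.6% of all genes higher, 32.1% lower, 65.7% called), led by Upk3b at 5.10 ± 0.32 and Upk1b at 4.41 ± 0.23. Krt19 differed by 0.28 ± 0.24 (edgeR adjusted p = 0.307) and Mab21l2 by 0.31 ± 0.34 (adjusted p = 0.430). Without Wt rep1 the Krt19 difference was 0.58 and passed (edgeR adjusted p = 0.0270), and that of Mab21l2 was -0.41. Against Shox2-high Tnnt2 cells 5 were higher (31.3% of all genes higher, 29% lower, 60.4% called) and Mab21l2 was lower by a log2 difference of -1.24 ± 0.35 (adjusted p = 0.00324), a call lost without Ho rep2 (-0.73, edgeR adjusted p = 0.128). Tbx18 differed there by -0.08 ± 0.25 (edgeR adjusted p = 0.805), from -0.29 to 0.20 as each library was left out, and by -0.80 (adjusted p = 0.0210) where the gate limits were doubled.

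Against Epcam cells 6 of 7 were higher (23.1% of all genes higher, 19.7% lower, 42.9% called), Mab21l2 by a log2 difference of 3.17 among them. Epcam cells held 5 UMIs of Wt1, 5 of Upk1b, 9 of Tbx18, 15 of Mab21l2 and 18 of Upk3b over the libraries tested. These genes pass the filter on low counts through other gates, and their calls here rest on few UMIs. Krt19 differed by -0.43 ± 0.28 in this comparison (edgeR adjusted p = 0.226). Without Ho rep2 the Krt19 difference was -0.85 and passed (edgeR adjusted p = 0.0414). Against Isl1 cells 6 of 7 were higher (12% of all genes higher, 8.09% lower, 20.1% called), with Upk1b at 5.80, Tbx18 at 3.95 and Wt1 at 3.71 on the log2 scale. Tcf21 was the smallest of the 6 at 1.05 ± 0.22 and did not pass without Wt rep2 (0.83, edgeR adjusted p = 0.0586) or with doubled gate limits (0.36, adjusted p = 0.176). Without Wt rep2 the genes called in this comparison fell from 2995 to 1021.

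Against Crabp1 cells 6 were higher (9.98% of all genes higher, 2.82% lower, 12.8% called) and Mab21l2 was lower, at -1.64 ± 0.42 (edgeR adjusted p = 0.0107). Crabp1 cells held 8 UMIs of Upk1b, 10 of Tbx18, 14 of Wt1 and 21 of Krt19 over the libraries tested. The higher calls of these genes thus rest on few UMIs there. That Mab21l2 call needed both Wt libraries, with -2.10 (edgeR adjusted p = 0.0689) without Wt rep1 and -1.52 (adjusted p = 0.0605) without Wt rep2. Wt rep1 held most cells of this gate, and without it the genes called fell from 1905 to 227.

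Within the Tnnt2 cells, Shox2-high cells had more Tbx18 (log2 difference 2.63 ± 0.27, edgeR adjusted p = 8.52e-08) and more Tcf21 (2.54 ± 0.24, adjusted p = 1.85e-08) than Shox2-low cells. Upk3b (1.58 ± 0.38, edgeR adjusted p = 0.00256) and Mab21l2 (1.55 ± 0.34, adjusted p = 0.00108) were also higher, and Krt19 was lower (-1.13 ± 0.28, adjusted p = 0.00321). That made 4 members higher and 1 lower, where 12.6% of all genes were higher, 17.6% lower and 30.2% called. Wt1 (-0.19 ± 0.34, edgeR adjusted p = 0.713) and Upk1b (0.60 ± 0.32, adjusted p = 0.167) did not pass. The Mab21l2 call was lost without Ho rep2 (1.09, edgeR adjusted p = 0.0529).

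A small set of ungated cells carried most of the uroplakin UMIs. Cells with a UMI of both Upk1b and Upk3b, called uroplakin-positive here, numbered 86, 145, 111 and 145 among the ungated cells, 487 of 29168 cells in all. Their median depth was 18594, 22224, 22312 and 23167 UMIs, above that of the other cells, and was not matched. They held 79.3%, 81.6%, 73.1% and 79.7% of all UMIs of Upk1b in their libraries and 70.1%, 78.5%, 74.5% and 72.2% of those of Upk3b, which the choice of the cells fixes in part.

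The genes that the choice did not use showed the following. The same cells held 56.0%, 62.3%, 46.4% and 60.2% of the UMIs of Wt1, 47.7%, 50.6%, 40.0% and 38.6% of those of Tbx18, and 25.1%, 42.9%, 38.2% and 32.0% of those of Tcf21. Krt19 had 18.0% to 31.1% of its UMIs there, and Mab21l2 1.20%, 2.64%, 3.99% and 5.71%. Wt1 thus had the largest share of the 3 transcription factors in these cells in every library, while most Tcf21 lay outside them in 4 of 4 libraries.

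In uroplakin-positive cells the level of Wt1 was 121, 134, 113 and 153 CPM, against 1.37, 2.18, 3.25 and 4.45 in the other ungated cells. Tcf21 had 866, 924, 771 and 829 CPM against 49.5, 49.9, 46.2 and 117. Tbx18 had 168, 151, 183 and 218 CPM against 1.80, 4.98, 11.2 and 16.7. For each of these 3 genes the lowest value in uroplakin-positive cells lay above the highest in the other cells. Krt19 had 185, 199, 183 and 254 CPM against 8.58, 15.7, 13.9 and 10.7, a ratio of 12.7 to 23.8. Mab21l2 had 10.3, 6.56, 8.97 and 13.1 CPM against 23.1, 8.40, 3.87 and 6.59, below the other cells in both Wt libraries and above them in both Ho libraries.

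**Figure D2:**
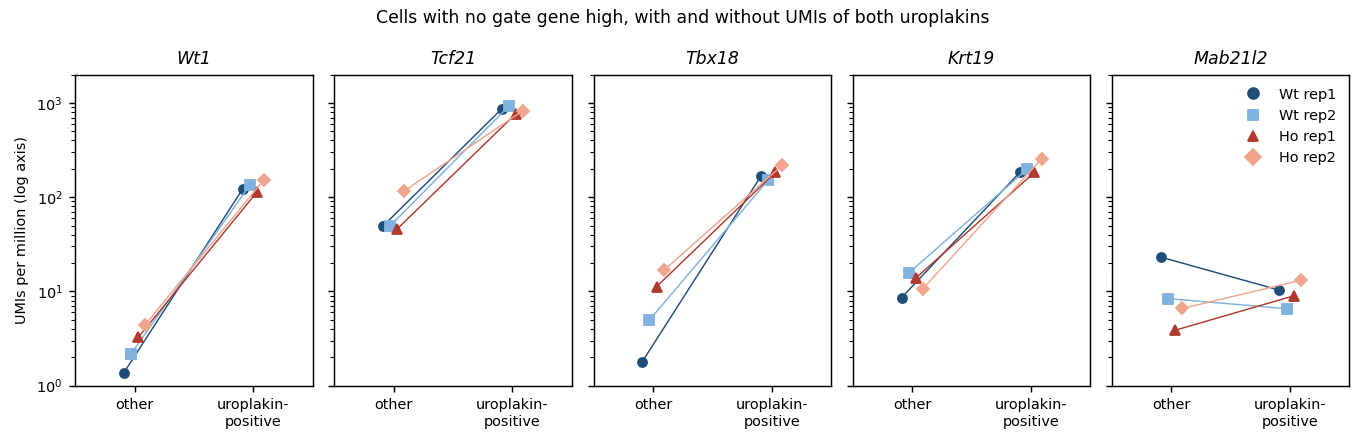
Level of 5 genes (CPM, log axis) in ungated cells with a UMI of both Upk1b and Upk3b and in the other ungated cells, with a line for each library. Wt1, Tcf21, Tbx18 and Krt19 rise by ratios of 7.09 to 93.0, and the Mab21l2 lines cross.

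Nearly every uroplakin-positive cell had a UMI of Tcf21, with 97.7%, 97.9%, 98.2% and 95.9% of cells. Tbx18 was found in 90.7%, 89.0%, 95.5% and 94.5%, Wt1 in 86.0%, 89.0%, 86.5% and 89.0%, and Krt19 in 80.2%, 83.4%, 87.4% and 90.3%. All of Wt1, Tcf21, Tbx18 and Krt19 were found together in 56, 104, 87 and 115 cells, or 65.1%, 71.7%, 78.4% and 79.3%. Of the other ungated cells 1, 4, 1 and 6 had all 4, at most 0.555%. The shares in this paragraph are without thinning, and depth was not matched. The other ungated cells had median depths of 6403.5, 6958, 10029.5 and 11328 UMIs, below those of the uroplakin-positive cells in every library. Mab21l2 was found in 13.8% to 24.1% of uroplakin-positive cells, Msln in 4.83% to 8.11% and Sema3e in 4.14% to 6.98%. Msln had 5, 7, 12 and 10 UMIs in them and 1, 0, 0 and 0 in the other ungated cells, and Sema3e had 6, 6, 7 and 7 against 9, 1, 1 and 1.

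The partners of these genes were described in the same cells. Krt18 and Krt8, keratins of simple epithelia, had 558, 584, 493 and 704 CPM and 324, 268, 236 and 331 CPM. Podxl, a sialomucin tied to Wt1, had 206, 180, 189 and 220 CPM, and Aldh1a2, the retinoic acid synthesis enzyme of the epicardium, had 67.4, 68.4, 49.9 and 69.9. Muc16, the mucin that binds mesothelin, had 3, 9, 3 and 6 UMIs. Nrp1, a semaphorin co-receptor, had 91.6, 94.3, 85.0 and 104 CPM, whereas Plxnd1 had 4.86, 5.00, 8.19 and 6.87. The remaining uroplakin genes were nearly silent there, with 2 UMIs of Upk1a in Wt rep1 and 0 of Upk2, Upk3a and Upk3bl in all 4 libraries, while Upk3bl had 74, 31 and 32 UMIs in the Epcam cells of Wt rep1, Wt rep2 and Ho rep2.

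A list of 22 other epicardial and mesothelial genes had summed levels of 1936, 1919, 1688 and 2093 CPM in uroplakin-positive cells, with Krt18 the most abundant and 0 to 2 of the 22 at 0. Over all ungated cells the sum was 409, 785, 616 and 773 CPM. Of the 21 list genes tested between gates, 17 were called higher and 1 lower in ungated than in Cdh5 cells, where 24.9% of all genes were higher and 22.8% lower, with a median log2 difference of 4.08 against 0.02 over all genes tested. The counts were 15 higher and 2 lower against Shox2-low cells (median 3.18), where 33.6% and 32.1% of all genes were called, and 14 and 2 against Shox2-high cells (median 2.04), where 31.3% and 29% were. They were 16 and 1 against Hapln1 cells (median 2.42, all genes 14.2% and 14.5%), 9 and 1 against Isl1 cells (median 0.97, all genes 12% and 8.09%), 16 and 0 against Crabp1 cells (median 3.02, all genes 9.98% and 2.82%) and 8 and 8 against Epcam cells (median 0.51, all genes 23.1% and 19.7%). Lhx9, a LIM homeobox factor, Bnc1, a zinc finger factor of mesothelium, and Rspo1, a secreted amplifier of Wnt signals, were called higher against each of the 7 gates, Lhx9 by log2 differences of 2.56 ± 0.33 against Hapln1 cells to 6.76 ± 0.47 against Cdh5 cells. The 8 lower than in Epcam cells were Krt7, Krt8, Krt18, Cdh3, Lrp2, Alcam, Anxa8 and Cpe, most of them genes of epithelia at large. Gata5 was lower than in Cdh5, Hapln1 and Isl1 cells. Lists for some other cell types leaned the same way. All 7 blood genes and all 6 macrophage genes were called higher in ungated cells against each of the 7 gates, with medians of 7.28 and 6.49 against Cdh5 cells. All 8 cardiomyocyte genes were lower against both Tnnt2 gates, and all 7 endothelial genes were lower against Cdh5 cells.

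Markers of other cell types were read in the uroplakin-positive cells. These cells had no high Tnnt2, Cdh5, Isl1 or Hapln1, each of them a gene of one of the lists, so the choice of cells fixes the sums in part. The 14 heart-forming and proepicardial factors summed to 509, 476, 495 and 455 CPM, with Meis2 the most abundant in 3 libraries and Gata6 in Ho rep2. Of 8 cardiomyocyte genes the sum was 3355, 2795, 4284 and 3957 CPM, of which Myl7 made 2893, 2407, 3695 and 3496, and 1, 1, 1 and 0 of the 8 were at 0. Both Ho values lay above both Wt values, and the part of cardiomyocyte RNA in the results below was not tested. The 7 mesenchymal genes summed to 505, 459, 468 and 436 CPM (Cthrc1 or Hapln1 most abundant, none at 0). The 7 endothelial genes summed to 85.6, 81.2, 80.4 and 75.3 CPM, nearly all of it Egfl7 at 72.6 to 80.1.

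The epithelial, blood, hepatoblast and macrophage lists were low. The 6 epithelial genes summed to 1.21, 0.625, 1.17 and 2.39 CPM with 5, 5, 5 and 3 of them at 0, which the choice of cells without high Epcam fixes in part. The 7 blood genes summed to 3.64, 6.25, 20.3 and 6.87 CPM (Hbb-y or Hba-x most abundant, 2 or 3 at 0), where all ungated cells had 1400, 4657, 22595 and 5146. The 6 hepatoblast genes summed to 8.50, 2.81, 5.46 and 5.67 CPM (Apoa2), and the 6 macrophage genes to 3.03, 3.44, 2.73 and 2.99 (Csf1r). The 4 neural genes summed to 108, 70.9, 94.4 and 148 CPM, nearly all of it Tubb3.

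Co-detection in single cells was read after thinning to 2000 UMIs, over all gates, as the share of cells with a UMI of a second gene among cells with a UMI of the first. Cells of a library are not replicates, and these shares carry no test. Among 569 cells with Upk3b the mean over 4 libraries was 66.6% with Tcf21, 36.3% with Upk1b, 22.7% with Krt19, 22.2% with Tbx18 and 19.1% with Wt1. In cells without Upk3b the same means were 7.30%, 0.439%, 3.33%, 1.35% and 0.542%. The relation with Upk1b ranged from 33.3% to 41.0% over the libraries. Mab21l2 was found in 2.91% of Upk3b cells and 1.86% of the rest, with 0% to 7.02% by library.

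The reverse shares differed by gene. Of 317 Upk1b cells 65.3% had Upk3b, and of 247 Wt1 cells 44.8% had Upk3b and 51.8% Tcf21. Among 460 cells with Tbx18 42.4% had Tcf21 and 28.1% Upk3b. Of 2242 Tcf21 cells only 17.4% had Upk3b, and of 980 Krt19 cells 13.7%. Of 510 Mab21l2 cells 2.80% had Upk3b, near the 2.21% in cells without Mab21l2. Within the ungated cells alone, 76.0% of Upk3b cells had Tcf21 against 12.8% of the others, and 42.8% had Upk1b against 2.06%. Over all gates the share of Upk3b cells with Upk1b was 53.0% where cells were thinned to 5000 UMIs and 54.2% with no thinning, so the shares depend on depth.

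**Figure D3:**
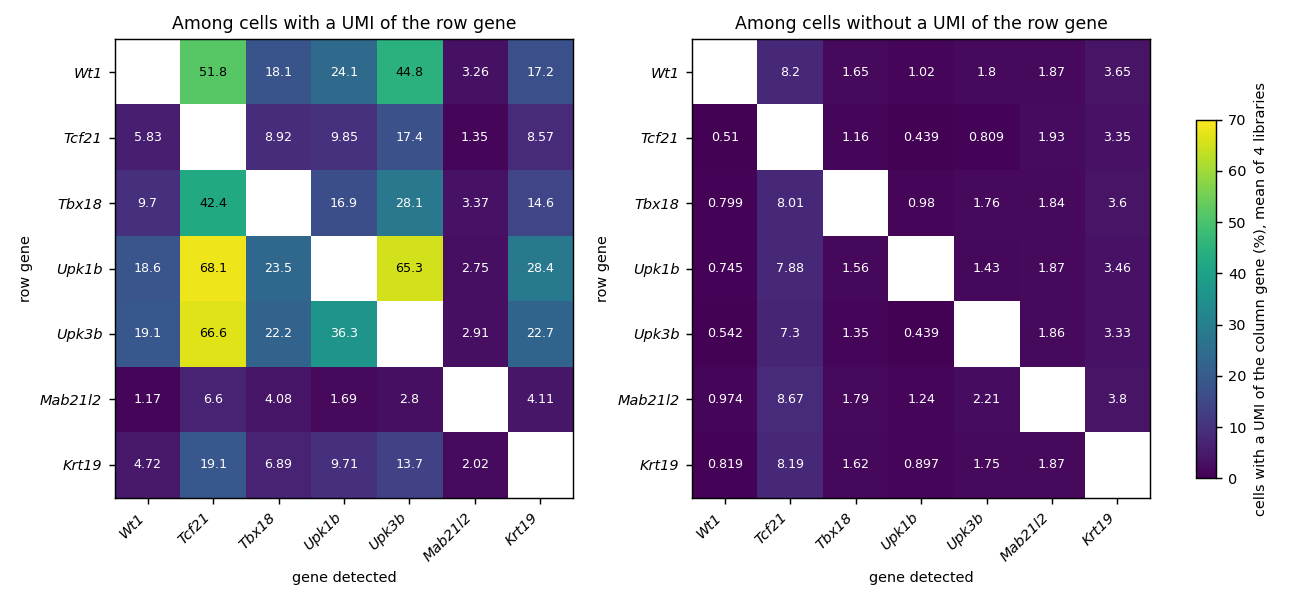
Share of cells (%, mean of 4 libraries, thinned to 2000 UMIs) with a UMI of the column gene among cells with a UMI of the row gene (left) and without one (right). Rows of Wt1, Tcf21, Tbx18, Upk1b, Upk3b and Krt19 have higher shares on the left for each other's genes, while the Mab21l2 row is at 1.17% to 6.60% on the left and 0.974% to 8.67% on the right.

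The uroplakin-positive cells made up 0.446%, 0.732%, 0.461% and 1.04% of cells after thinning (34 of 7619, 47 of 6424, 30 of 6503 and 59 of 5659), with exact 95% intervals, for counting error only, of 0.309% to 0.623%, 0.538% to 0.972%, 0.311% to 0.658% and 0.795% to 1.34%. Without thinning the shares were 0.965%, 2.03%, 1.59% and 2.37%. The mean was 0.589% ± 0.202 in Wt and 0.752% ± 0.411 in Ho (SD, n = 2 libraries each), with a difference of 0.163 percentage points and an exact two-sided permutation p of 0.667, where 2 against 2 libraries cannot go below 0.333. Without Ho rep2 the difference was -0.128 percentage points. Among thinned ungated cells the shares were 1.75%, 5.59%, 4.72% and 6.20%, with Wt rep1 lowest, and their difference of 1.79 points became -0.131 without Wt rep1.

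Some cells of other gates also had both uroplakins. They numbered 7, 16, 20 and 20 in the Hapln1 gate, 6, 5, 12 and 10 among Shox2-low cells, 3, 5, 10 and 8 among Shox2-high cells, 4, 2, 1 and 5 in the Isl1 gate, 0, 2, 2 and 0 in the Cdh5 gate and 0 in every Epcam gate. The levels of the transcription factors were therefore read again without them, an alternative added after the values were seen and given without a test. In Hapln1 cells the mean of Wt1 went from 3.88 to 0.390 CPM in Wt and from 5.65 to 1.14 in Ho, and that of Tbx18 from 5.43 to 1.08 and from 9.02 to 2.00. In the same cells the mean of Tcf21 went from 109 to 84.8 CPM in Wt and from 128 to 91.4 in Ho. In Shox2-high cells Tbx18 stayed at 27.0, 23.7, 36.5 and 59.0 CPM, close to the values with all cells. In Shox2-low cells Wt1 was still 2.45, 3.16, 3.71 and 4.10 CPM. The Wt1 and Tbx18 of Hapln1 cells thus rested on few cells with both uroplakins, while most of the Tcf21 of Hapln1 cells, the Tbx18 of Shox2-high cells and the Wt1 of Shox2-low cells lay in other cells.

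**Figure D4:**
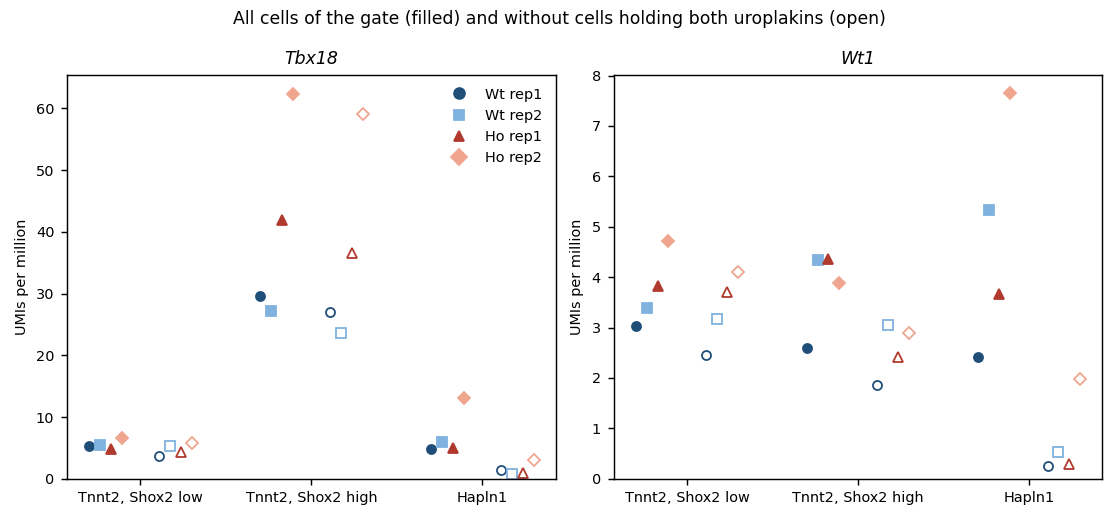
Level (CPM) of Tbx18 and Wt1 in Tnnt2 and Hapln1 cells, for all cells of the gate (filled) and without cells that have a UMI of both uroplakins (open), with a symbol for each library. The Hapln1 points fall to 3.09 or less, and the Tbx18 points of Shox2-high cells stay at 23.7 to 59.0.

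Ho was compared with Wt within each gate that had enough cells in all 4 libraries, by edgeR's quasi-likelihood test on the sums of 2 and 2 libraries. Of 46 tests on members, 37 had a positive log2 fold change, 7 had an unadjusted p under 0.05 (Tbx18 in 3 sets of cells, Wt1, Tcf21, Upk1b and Mab21l2 in 1 each) and 0 passed after adjustment. Over all genes tested in these sets of cells 5.09% had an unadjusted p under 0.05, from 2.29% in ungated to 8.39% in Shox2-low cells. The tests are not independent, since the sets share libraries and the uroplakin-positive cells are part of the ungated cells. The share of all genes with a positive fold change was not counted, so the 37 are not read as a shift of these genes. The genes called were 6 of 14308 tested in Shox2-low cells (0.0419%, of which 0.028% higher in Ho and 0.014% lower), 4 of 11431 in Shox2-high cells (0.035%, of which 0.0262% higher and 0.00875% lower), 5 of 12377 in Hapln1 cells (0.0404%, all higher), 3 of 9974 in uroplakin-positive cells (0.0301%, all higher), and 0 (0%) of 13389 in Cdh5, of 12766 in Isl1 and of 13424 in ungated cells. The genes called, named here after their values were seen, were Bmp2, Tbx3, Wdr89 and Robo1 (higher) and Hist1h1e and Cthrc1 (lower) in Shox2-low cells, Plac8, Wdr89 and Hes1 (higher) and Nppa (lower) in Shox2-high cells, Igfbp5, Rps27rt, Myl7, Wdcp and Wdr89 in Hapln1 cells, and Sag, Csrp3 and Gm10457 in uroplakin-positive cells. In the Cdh5, Isl1 and ungated cells 671, 340 and 308 genes had an unadjusted edgeR p under 0.05, and DESeq2 called 22, 3 and 7. Of the list of 14 heart-forming factors 9 to 14, and of the list of 22 other epicardial genes 12 to 20, were tested in each set of cells, and 0 of those tested were called by edgeR.

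Tbx18 had the smallest unadjusted genotype p of the 7 genes tested, in Shox2-high Tnnt2 cells. Msln and Sema3e were not tested between genotypes. There the mean of Tbx18 was 28.4 CPM in Wt and 52.1 in Ho, and the genotypes did not overlap, with Ho rep2 the highest. The log2 fold change was 0.88 ± 0.17 (SE) with an edgeR adjusted p of 0.222. Leaving out each library in turn gave 0.58 to 1.11. Without Ho rep1 the fold change was 1.11 ± 0.14, in a fit in which the lone Ho library is assumed to vary like the Wt libraries. With no filter on low counts the fold change was 0.89 with an edgeR adjusted p of 7.24e-06, and calls over all genes rose to 126. With the replicate number as a block the edgeR adjusted p was 0.0373, although the numbers do not pair these libraries. Calls over all genes were 19 with that block. Leaving out cells with both uroplakins gave means of 25.4 and 47.8 CPM, again without overlap, and Shox2 itself was 404, 410, 358 and 467 CPM in this gate, with overlapping genotypes.

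In the same Shox2-high cells Tcf21 differed by 0.30 ± 0.13 (edgeR adjusted p = 0.766) and Upk3b by 0.27 ± 0.21 (adjusted p = 0.891). Their Ho values lay above their Wt values, as for Tbx18, so that 3 of 7 members did not overlap in this direction, where 17.9% of genes tested did so. The sign of the Upk3b difference turned with the gate limits, to -0.60 where they were halved and -0.76 where they were doubled, and that of Tcf21 was -0.01 where they were halved. Without cells with both uroplakins the genotypes of Tcf21 overlapped, at 58.1, 72.6, 68.1 and 95.7 CPM. Mab21l2 differed by 0.41 ± 0.29, and was 0.85 without Ho rep1 and -0.34 without Ho rep2. Of 14 other epicardial genes tested in Shox2-high cells 12 had a positive log2 fold change (median 0.31, beside 0.00 over all genes) and 0 were called, with summed levels of 230, 233, 259 and 307 CPM for the list. Of 6 mesenchymal genes 5 were positive (median 0.36, 0 called), with sums of 90.2, 108, 158 and 116 CPM. The blood genes summed to 2.34, 5.94, 699 and 7.98 CPM, highest in Ho rep1 by far, and the cardiomyocyte genes to 38401, 38650, 34021 and 34701 CPM. The part of RNA from other cell types in the differences of Tbx18, Tcf21 and Upk3b was not tested. The share of Shox2-high cells among Tnnt2 cells was 16.3%, 10.6%, 12.0% and 21.8%.

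Tbx18 was also higher in both Ho libraries in uroplakin-positive, ungated and Isl1 cells, the first being part of the second. Its few UMIs in Cdh5 cells did not pass the filter. In uroplakin-positive cells the log2 fold change was 0.37 ± 0.13 (edgeR adjusted p = 0.919), and 13.3% of genes tested had this pattern. In ungated cells it was 1.12 ± 0.48 (edgeR adjusted p = 1.00), where 9.92% did so, and it ranged from 0.54 to 2.03 as each library was left out. In Isl1 cells it was 2.62 ± 0.43 (edgeR adjusted p = 1.00), where 11% did so. The levels were 0.733 and 1.37 CPM in Wt and 5.57 and 6.39 in Ho. With no filter on low counts the edgeR adjusted p was 7.5e-05, and calls over all genes in Isl1 cells rose to 161. The Ho rep1 value rests on 5 UMIs in 66 cells, and without cells with both uroplakins the genotypes overlapped in the Isl1 gate. In Isl1 cells 7 of 8 cardiomyocyte genes (median 0.67), 5 of 6 endothelial genes (0.58) and 5 of 7 mesenchymal genes (0.67) were positive. Of 2 epithelial genes tested there 0 were positive. None of these was called, and their part in the Tbx18 value was not tested. In Shox2-low cells Tbx18 was 0.04 ± 0.16 with overlapping libraries, and the difference between the effects in Shox2-high and Shox2-low cells, tested after the values were seen, was 0.81 ± 0.17 (edgeR interaction, adjusted p = 0.0553), where 0.242% of 13208 genes were called.

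In uroplakin-positive cells Wt1, Krt19, Mab21l2 and Tcf21 did not pass either. Wt1 differed by 0.09 ± 0.14, Krt19 by 0.21 ± 0.14 and Mab21l2 by 0.53 ± 0.33. Tcf21 was -0.13 ± 0.11 with the Ho values below the Wt values, a pattern of 19.6% of genes tested. Upk1b and Upk3b chose these cells, and no genotype test of them is reported there. The 19 other epicardial genes tested there had a median log2 fold change of -0.03, beside 0.00 over all genes, and the 6 cardiomyocyte genes tested had a median of 0.73 with 0 called.

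Over all ungated cells the estimates were wide. Wt1 differed by 0.65 ± 0.54, Tcf21 by 0.46 ± 0.40, Upk1b by 0.65 ± 0.57, Upk3b by 0.29 ± 0.61 and Krt19 by 0.60 ± 0.46, and none passed. Wt rep1 was the lowest library for each of these 5, and without it Tcf21 was -0.03 and Upk3b -0.38. Mab21l2 was -1.19 ± 0.55, with Wt rep1 the highest at 22.2 CPM. Of the 20 other epicardial genes tested 17 had a positive log2 fold change, with a median of 0.53 and 0 called, beside 0.01 over all genes. Marker lists of other cell types also leaned one way in the same comparison. All 8 cardiomyocyte genes were positive (median 0.96, sums of 597, 1388, 2408 and 1538 CPM, mostly Myl7), as were all 7 blood genes (median 2.31) and all 7 endothelial genes (median 0.29, sums of 150, 268, 278 and 216 CPM), and 1 of 6 macrophage genes was (median -0.91, sums of 38.5, 210, 166 and 23.3 CPM). None of these was called, and their part in the values of the members was not tested.

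In the remaining gates Mab21l2 was lower in both Ho libraries in Isl1 cells (-0.98 ± 0.22, edgeR adjusted p = 1.00), where 21.4% of genes did so, and in Hapln1 cells (-0.76 ± 0.38, adjusted p = 0.854), where 19.6% did so. Upk1b was higher in both Ho libraries in Isl1 cells (1.26 ± 0.66), where 11% of genes did so and Ho rep1 had 3 UMIs in 66 cells. In Hapln1 cells Upk1b overlapped between genotypes (0.74 ± 0.30, edgeR adjusted p = 0.795). With no filter on low counts this edgeR adjusted p was 0.00862, and calls over all genes there rose to 154. Wt1 in Shox2-low cells was 0.39 ± 0.17 (edgeR adjusted p = 0.589), with Ho above Wt as in 18.8% of genes. In Cdh5 cells Tcf21 was 0.29 ± 0.13 (edgeR adjusted p = 0.921), with Ho above Wt as in 12.5% of genes. The share of background RNA in it was not estimated. All 8 cardiomyocyte genes (median 0.80) and all 6 blood genes tested there (median 3.61) were positive, as were 2 of 7 endothelial genes, with 0 called. In Hapln1 cells 5 of 7 cardiomyocyte genes (median 0.62, Myl7 called) and 2 of 7 mesenchymal genes were positive. The part of these lists in the values of the members was not tested. No member passed in Hapln1 cells with all libraries and the filter on low counts. Without Ho rep1, with Ho rep2 as the lone Ho library, the log2 fold changes were 1.25 for Tbx18, 1.21 for Upk1b, 0.84 for Upk3b and 0.44 for Tcf21. With all libraries these were 0.64 ± 0.37, 0.74 ± 0.30, 0.49 ± 0.28 and 0.24 ± 0.14, and without Ho rep2 Tbx18 was -0.12. Among Shox2-low cells Mab21l2 was -0.10 ± 0.33 with all libraries (edgeR adjusted p = 0.955), whereas without Wt rep2 its sign turned (0.99). Tcf21 was -0.28 ± 0.28 and Upk3b -0.55 ± 0.38 there with all libraries. They were -0.91 and -1.44 without Ho rep2, and 0.20 and 0.07 without Ho rep1.

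**Figure D5:**
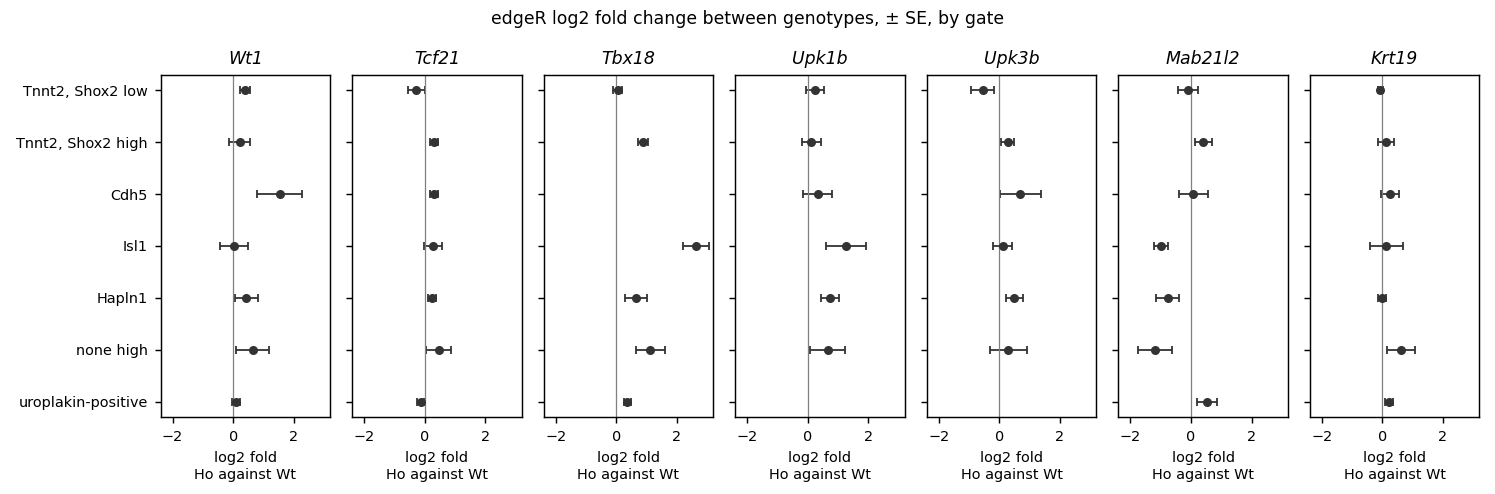
edgeR log2 fold change of Ho against Wt (points, bars are ± SE) for 7 genes in each gate. Tbx18 is at 0.88 in Shox2-high and 2.62 in Isl1 cells and near 0 in Shox2-low cells, it was not tested in Cdh5 cells, and no point passed the adjusted threshold.

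The patterns most like those of the members were read as the Pearson correlation of log2(CPM + 1) over 30 sums of libraries and gates, among 14026 genes with at least 200 UMIs. These sums share libraries and the correlations are descriptions. Wt1 was closest to Upk1b (0.95), Upk3b (0.91) and Il18 (0.87), and Upk1b to Wt1, Lhx9 (0.93) and Aqp5 (0.93). Upk3b was closest to Upk1b (0.92), Wt1 (0.91) and Lhx9 (0.88), and Tcf21 to Bicc1 (0.90), Myrf (0.90) and Upk3b (0.87). Tbx18 had none of the members among its nearest 3, which were Enpep (0.91), Pla2g12b (0.89) and Enpp1 (0.89). Mab21l2 was closest to Nr2f1 (0.88), Kctd1 (0.88) and Runx1t1 (0.87), and Krt19 to F3 (0.87), Serpinb6a (0.86) and Arhgdig (0.84). Msln and Sema3e had too few UMIs for this measure.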

How the data were processed

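Deposited values were counts of UMIs per gene and barcode, which the authors made with Cell Ranger 6.1.1 on mm10 (GRCm38) from 10x 3′ libraries; Seurat 4.1.0 is also named in the submitters' processing notes. A 3′ count does not read the mutated codon of Cyp51. The 4 libraries held 10320, 8212, 7999 and 7058 barcodes. Cells were dropped above 20% mitochondrial counts, below 500 or above 50000 UMIs, and below 500 or above 6000 genes detected, and Scrublet (scanpy 1.11.5) removed 746, 464, 440 and 334 doublets, the top 0.8% per 1000 cells. Python 3.11.15 and R 4.3.3 were used.

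A gate gene was high with at least 2 UMIs and, per 10000 UMIs, at least 8 (Tnnt2), 5 (Crabp1), 4 (Hapln1) or 1 (Cdh5, Epcam, Isl1, Shox2). Cells high for at least 2 of Tnnt2, Cdh5 and Epcam (17, 18, 51 and 7) were left out, and others took the first gate in the order Tnnt2, Cdh5, Epcam, Isl1, Crabp1, Hapln1. Counts were summed per library and gate with at least 20 cells. edgeR 4.0.16 (quasi-likelihood, TMM, default filter on low counts, Benjamini-Hochberg) was the test, with the library as a block between gates, and SE is the log2 fold change divided by the square root of F. DESeq2 1.42.0, other filters, normalization, gate limits, exclusive gates, doublets kept and each library left out were alternatives. The scripts were tested on simulated data. Shares used cells with at least 2000 UMIs, thinned to 2000 UMIs; this left out 1289, 730, 477 and 467 cells. The exact binomial intervals (95%) and limits for a count of 0 (3 counts) cover counting error only.

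The genes, gates and lists (other epicardial and mesothelial, heart-forming and proepicardial, cardiomyocyte, endothelial, mesenchymal, epithelial, hepatoblast, blood, macrophage, neural) were chosen with earlier results of these data known. A further list of markers is not reported here. Genes named are the 9, their partners and the remaining uroplakin genes, the 3 genes nearest each by correlation, and in each list the most abundant gene and those called. Promoter windows came from RefSeq (GRCm38.p6) and gene positions from GENCODE M21.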

Additional observations from a re-analysis of the deposited data

Results flagged for a closer look

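Tcf21 had opposite genotype orders in different cells. Its log2 fold change of Ho against Wt was 0.30 in Shox2-high Tnnt2 cells and 0.29 in Cdh5 cells, where both Ho values were the higher ones, and -0.13 in uroplakin-positive cells, where both were the lower ones. The Cdh5 levels of 9.04 to 12.1 CPM lay within the 8.47 to 16.1 CPM of Epcam cells. The share of background RNA in them was not estimated. The difference between Shox2-high and uroplakin-positive cells, tested as an edgeR interaction after the values were seen, was 0.43 ± 0.10 (SE, adjusted p = 0.0397), and 51 of 11447 genes (0.446%) were called. Tcf21 and these cells were picked for their opposite orders, so this p-value is no independent support for the difference. The difference between Cdh5 and uroplakin-positive cells was 0.43 ± 0.11 (edgeR adjusted p = 0.499), with 0 of 12991 genes called and 559 at an unadjusted p under 0.05; DESeq2 was not run on interactions. The Shox2-high value was -0.012 where the gate limits were halved. Cells with both uroplakins made up part of the Shox2-high gate, and without them the genotypes of Tcf21 overlapped there (means 65.3 and 81.9 CPM). Groups of 2 libraries were too small for a search for single libraries far from the others.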

How the results depend on the processing

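Between gates, 709 of 728 values (56 log2 differences of members under 13 alternatives) had the same direction and side of the threshold, 8 no longer passed, 4 newly passed and 7 reversed; none of the 7 reversed values was of a difference called with all libraries. Those 7 were Mab21l2 for ungated against Shox2-low cells (-0.41 without Wt rep1, range -0.41 to 0.63 as each library was left out), Tbx18 against Shox2-high cells (0.20 without Wt rep1, range -0.29 to 0.20), Krt19 against Shox2-low cells with doubled limits (-0.46) and against Epcam cells with exclusive gates (0.13), Mab21l2 against Isl1 cells without Wt rep2 (0.13, range -0.63 to 0.13) and with exclusive gates (0.026), and Wt1 in Shox2-high against Shox2-low cells with halved limits (0.041). Among values not given above, Mab21l2 against Crabp1 cells with doubled limits was -1.46 (edgeR adjusted p = 0.0565) and Krt19 against Epcam cells with doubled limits -1.21 (adjusted p = 0.000792). Genes called against Epcam cells were 3684 with exclusive gates. Leaving out each library gave 4750 to 5871 there, 1021 to 2823 against Isl1 cells, 227 to 1339 against Crabp1 cells, 3012 to 3595 against Hapln1 cells and 3053 to 4101 between the Tnnt2 gates, and 5 to 8 members against Shox2-low cells, where the highest count, without Wt rep1, includes Krt19 (0.58, edgeR adjusted p = 0.027) and also Msln and Sema3e. In those 3 libraries they had 7, 12 and 10 and 7, 8 and 8 UMIs in ungated cells and 0, 0 and 1 and 3, 2 and 1 in Shox2-low cells; genes this rare pass the filter only through the gates where they are high, and their calls support nothing. The causes were not tested.

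Counts of genes called between Ho and Wt moved with most settings. With DESeq2 they were 25 in Shox2-low, 22 in Cdh5, 3 in Isl1, 17 in Hapln1 and 7 in ungated cells. With no filter they were 297 in Shox2-low, 126 in Shox2-high, 225 in Cdh5, 161 in Isl1, 154 in Hapln1, 41 in ungated and 66 in uroplakin-positive cells. Calls thus rose over all genes, and 3 members passed, Tbx18 in Shox2-high and Isl1 cells and Upk1b in Hapln1 cells. Member counts here and in the settings below are not read as a result about the members, since calls over all genes moved as well. With doublets kept the genes called were 0 in Shox2-low and Hapln1 cells. With halved gate limits they were 1 in Shox2-high, 2 in Hapln1 and 0 in uroplakin-positive cells, and with doubled limits 1 in Isl1, 0 in Hapln1 and 1 in uroplakin-positive cells. At least 10 counts in every library, or uroplakin-positive cells of every gate, gave 1 in uroplakin-positive cells. Leaving out each library gave 34 to 179 in Shox2-low, 2 to 239 in Shox2-high, 0 to 66 in Cdh5, 0 to 270 in Isl1, 3 to 222 in Hapln1, 0 to 3 in ungated and 9 to 43 in uroplakin-positive cells, and 0 to 6 members.

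Libraries share replicate numbers, but these did not pair them. The correlation of same-numbered deviations over genes was between -0.54 in ungated cells and 0.06 in Hapln1 cells. With the replicate block the genes called were 30 in Shox2-low, 19 in Shox2-high, 12 in Cdh5, 15 in Hapln1 and 25 in uroplakin-positive cells and 1 member passed. With the numbers crossed, chosen after seeing the data, the block gave 105, 62, 21 and 27 in the first 4 of these, 22 in Isl1, 33 in ungated and 9 in uroplakin-positive cells, with 1 member.

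Of 680 genotype differences (46 of members under each alternative that could be fitted) 611 had the same direction and side of the threshold, 13 newly passed and 56, of 30 differences, reversed, 1 of them passing. Among those given as values in the text, reversals were Mab21l2 (0.99 without Wt rep2, the 1 that passed, range -0.57 to 0.99, and 0.024 and 0.023 with the replicate block and its crossed form), Tcf21 (0.20 without Ho rep1, range -0.91 to 0.20), Upk3b (0.069 without Ho rep1, range -1.44 to 0.069) and Tbx18 (-0.14 without Ho rep2, range -0.14 to 0.23, and -0.029 with exclusive gates) in Shox2-low cells. In Shox2-high cells they were Upk3b (-0.60 with halved and -0.76 with doubled limits) and Mab21l2 (-0.34 without Ho rep2, range -0.34 to 0.85), and in Hapln1 cells Tbx18 (-0.12 without Ho rep2, range -0.12 to 1.25, and -0.27 with doubled limits) and Tcf21 (-0.045 with doubled limits). The others were Tcf21 (-0.029 without Wt rep1, range -0.029 to 1.18) and Upk3b (-0.38 without Wt rep1, range -0.38 to 1.59) in ungated cells, Wt1 (-0.13 without Ho rep2, range -0.13 to 0.26) and Krt19 (-0.016 without Ho rep2, range -0.016 to 0.40) in uroplakin-positive cells, Wt1 there with doubled limits (-0.014), Mab21l2 there where at least 2 UMIs of Upk3b defined the cells (-0.0065), and, with halved limits, Tcf21 in Shox2-high (-0.012) and Mab21l2 in Hapln1 cells (0.047). The genotype difference in the share of uroplakin-positive cells reversed without Ho rep2, with a range of -0.128 to 0.454 percentage points as each library was left out, and that among ungated cells without Wt rep1, with a range of -0.131 to 3.71. The share of Upk3b cells with Upk1b was 53.0% at 5000 UMIs, 54.2% with no thinning and 32.3% with doublets kept, and 34.8% to 37.3% as each library was left out. Msln and Sema3e, with 53 and 70 UMIs in all, were too few for the filter on low counts in the fits of gates and of genotype within a gate with all libraries; they entered some fits of the difference between 2 genotype effects, where neither was called.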
